A study of Mus musculus with 3 samples.

Results

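The GIMAP genes encode GTPases of immunity-associated proteins, and 8 mouse members, Gimap1, Gimap3, Gimap4, Gimap5, Gimap6, Gimap7, Gimap8 and Gimap9, were examined in RNA sequencing of mouse regulatory T cells (Treg). The members were chosen by name, as 8 of the 50600 genes in the deposited tables and 8 of 21764 protein-coding genes, and the rule uses no measured value, though the family was picked with earlier results of these data known. The study comprises 3 libraries of primary C57BL/6NJ Treg cells, numbered biological replicates 2, 3 and 4, which form 1 group. Per the file headers the cells had been activated for 16 hours. A differentiation protocol is named for them as well, and its title names CD4 T cells. The labels name no genetic change and no second treatment, and give 1 donor identifier for all 3 libraries with no age or sex, so they do not say whether separate animals were used. SDs below therefore measure only the spread between these libraries, to which technical error may add. The p-values too speak of these libraries only, and those of the chi-square test set their differences against counting error alone.

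GIMAP proteins share a GTP-binding domain of the AIG1 type, are made mainly in lymphocytes and are encoded side by side in mammalian genomes. They are best known from lymphocyte survival: loss of Gimap5 depletes T cells in rats and mice, and loss of Gimap1 depletes mature T and B cells in mice. Several members have been reported to bind apoptosis regulators of the BCL2 family, and other members act at mitochondria or in autophagy.

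The 8 members lay in 1 cluster of 123.6 kb on chromosome 6 (chr6:48647234-48770851, mm10), with 6 genes on the plus strand and Gimap6 and Gimap3 on the minus strand. In order along the chromosome these were Gimap8 (ENSMUSG00000064262.7, 48647234 to 48660875), Gimap9 (ENSMUSG00000051124.6, 48676129 to 48679114), Gimap4 (ENSMUSG00000054435.16, 48684549 to 48692060) and Gimap6 (ENSMUSG00000047867.11, 48701582 to 48708225). Gimap7 (ENSMUSG00000043931.10, 48718621 to 48724636), Gimap1 (ENSMUSG00000090019.5, 48739054 to 48743795), Gimap5 (ENSMUSG00000043505.8, 48746197 to 48754210) and Gimap3 (ENSMUSG00000039264.9, 48764464 to 48770851) followed.

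What the members share in sequence is the G1 box, the loop of the GTP-binding domain that holds the phosphates of the nucleotide. A G1 box was found once in the coding sequence of 7 members and 3 times in that of Gimap8, whose coding sequence of 2064 bases compares with 873 to 984 bases in the others. The sites of Gimap8 were at chr6:48650256-48650279, chr6:48656119-48656142 and chr6:48658746-48658769 (plus strand). Those of Gimap9, Gimap4, Gimap7, Gimap1 and Gimap5 were at chr6:48677523-48677546, chr6:48690421-48690444, chr6:48723524-48723547, chr6:48742552-48742575 and chr6:48752594-48752617 (plus strand), and those of Gimap6 and Gimap3 at chr6:48702750-48702773 and chr6:48765887-48765910 (minus strand). The sequences below are shown 5′ to 3′ on the coding strand, and capitals mark the 4 codons that the G1 pattern fixes, the first and the last 3. Transcripts of GENCODE M21 (build GRCm38, the same as mm10) gave the letters. The boxes of Gimap3 and Gimap5 were identical, while the other 8 boxes differed from each other and from these.
Gimap8, first box: GGGaaacagggcgcaGGCAAAAGT
Gimap8, second box: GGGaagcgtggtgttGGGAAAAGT
Gimap8, last box: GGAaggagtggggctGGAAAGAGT
Gimap9: GGGaagactggaaatGGGAAGAGT
Gimap4: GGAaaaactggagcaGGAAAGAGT
Gimap6: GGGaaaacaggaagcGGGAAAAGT
Gimap7: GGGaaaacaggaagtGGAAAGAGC
Gimap1: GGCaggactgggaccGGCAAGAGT
Gimap5: GGCaaatctggctgcGGTAAAAGC
Gimap3: GGCaaatctggctgcGGTAAAAGC

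Gimap3 and Gimap5 are close copies of each other, which bears on how their fragments can be counted. Over 720 aligned coding bases, 79.7% of the shorter coding sequence, they were 97.9% identical, with an identical run of 140 bases. No other pair of members had an identical coding run longer than 17 bases; Gimap7 and Gimap9 were 74.9% identical over 621 aligned bases, and Gimap5 and Gimap6 were 73.3% identical over 480. The longest run shared by Gimap3 (window chr6:48765666-48765835, minus strand) and Gimap5 (window chr6:48752669-48752838, plus strand) is shown with 15 bases on each side, and capitals mark the 2 bases at which the windows differ.
Gimap3: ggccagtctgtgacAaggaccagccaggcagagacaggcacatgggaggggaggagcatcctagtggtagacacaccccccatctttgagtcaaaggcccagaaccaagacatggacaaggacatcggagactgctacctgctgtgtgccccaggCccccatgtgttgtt
Gimap5: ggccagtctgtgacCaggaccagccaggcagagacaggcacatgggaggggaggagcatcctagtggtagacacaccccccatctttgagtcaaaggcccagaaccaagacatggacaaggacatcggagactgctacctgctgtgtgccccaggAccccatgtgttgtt
A fragment that lies wholly in such a run cannot be assigned to 1 of the 2 genes. Of the 50-base stretches in their exons, 91.9% for Gimap3 and 95.5% for Gimap5 were found in no gene elsewhere, with 190 stretches common to both. The share was 98.4% for Gimap1 and 99.8% to 100% for the other members. Read length is not given in the sources used here, so how many fragments were lost is unknown, and the levels of Gimap3 and Gimap5 are uncertain to that extent.

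The libraries held 41222058, 47665060 and 99097524 fragments assigned to genes in replicates 2, 3 and 4. T cell markers were high in all 3, with 8 of 8 at 10 TPM or more (fragments per base of exon, scaled to the same total in each library), including Cd4 at 591 ± 17.9 TPM and Foxp3, the factor that defines Treg cells, at 80.9 ± 3.97 TPM (SD, n = 3). The libraries stood apart in sex-linked RNA: Xist was at 126, 0.331 and 36.1 TPM, and the Y-linked gene Ddx3y at 0.126, 39.3 and 28.4 TPM, in replicates 2, 3 and 4, so that replicate 4 carried both, and replicates 2 and 3 did not come from the same animal. Its part in the GIMAP values was not tested, and values without each library are given with the processing alternatives.

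Every GIMAP gene was transcribed in these Treg cells, from 2.79 ± 0.313 TPM for Gimap7 to 151 ± 6.37 TPM for Gimap3 (SD, n = 3). All 8 members reached 1 TPM in every library, against 9926 of 21764 protein-coding genes (45.6%), and 7 of 8 reached 10 TPM. Their median was 44.3 TPM, beside 0.355 TPM over all protein-coding genes, a comparison given as a description without a test. Together the 8 genes summed to 426, 409 and 408 TPM in replicates 2, 3 and 4, or 0.0337% ± 0.000634 of fragments. Gimap3 alone made up 36.4% ± 1.08 of that sum, and Gimap1, Gimap6 and Gimap9 added 17.0% ± 1.32, 14.9% ± 0.509 and 13.6% ± 0.468 (SD, n = 3).

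**Figure D1:**
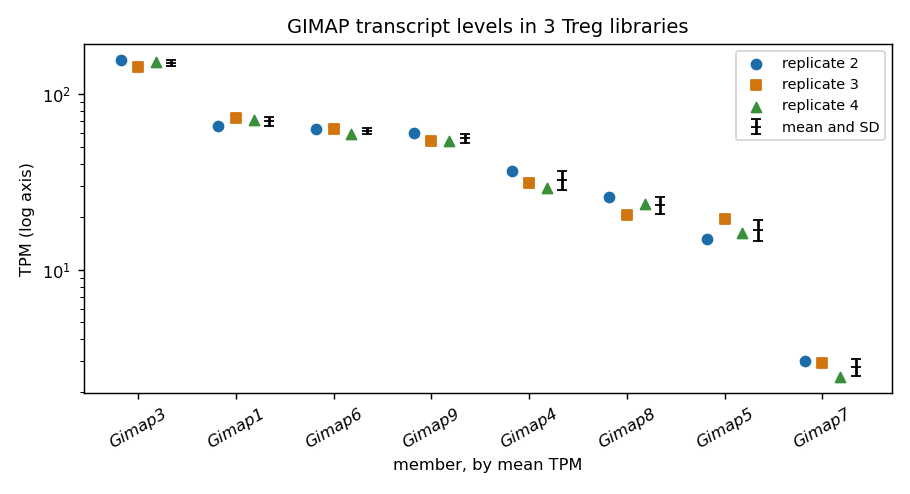
TPM (log axis) of each GIMAP gene in replicates 2, 3 and 4, with the mean and SD over the 3 libraries to the right of the points. Gimap3 lies highest at 151 ± 6.37 TPM, 6 members fall between 16.8 and 70.2 TPM, and Gimap7 stands apart at 2.79 ± 0.313 TPM.

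Among members tied to lymphocyte survival, the levels spread widely. Gimap3, which acts at mitochondria and influences the inheritance of mitochondrial DNA in mice, was at 156, 144 and 152 TPM in replicates 2, 3 and 4, and ranked 1317 of 21764 protein-coding genes. Gimap1, needed by mature T and B cells, was at 65.9, 73.2 and 71.3 TPM, for a mean of 70.2 ± 3.82. Gimap5, the member whose loss causes lymphopenia, was at 14.99, 19.4 and 16.1 TPM, for a mean of 16.8 ± 2.27, rank 6635. The values of these 3 genes did not overlap in any library: Gimap3 was highest and Gimap5 lowest of the 3 throughout. The close copies Gimap3 and Gimap5 were thus at opposite ends of this group.

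Gimap4, which hastens the death of T cells after apoptosis has been induced in mice, was at 36.8, 31.3 and 29.0 TPM, for a mean of 32.3 ± 3.97 (SD, n = 3). Replicate 2 was highest. Gimap6, which binds the autophagy protein GABARAPL2 in human cells, was at 63.5, 63.3 and 59.0 TPM, for a mean of 61.9 ± 2.504. Its CV of 4.04% was the smallest of the 8 members, beside 13.5% for Gimap5, the largest.

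The other 3 members lay between 2.79 and 56.2 TPM on average. Gimap9 was at 60.1, 54.3 and 54.2 TPM, for a mean of 56.2 ± 3.38 (SD, n = 3). Gimap8, the member with several GTP-binding domains, was at 25.9, 20.5 and 23.7 TPM, for a mean of 23.4 ± 2.71. Gimap7, whose human counterpart hydrolyses GTP as a dimer, was at 2.995, 2.94 and 2.43 TPM from 85, 98 and 165 fragments. Gimap7 was thus scarce but above 0.106 TPM, the worth of 3 fragments in the shallowest library, and ranked 9382 of 21764 protein-coding genes. As it rests on the fewest fragments of any member, its level has the largest relative counting error.

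By mean TPM the order was Gimap3, Gimap1, Gimap6, Gimap9, Gimap4, Gimap8, Gimap5 and Gimap7. Neighbours in that order were compared within each library as the log2 ratio of TPM + 1. With the deposited merged exon length of each gene, the largest steps were at the ends. Gimap5 was above Gimap7 by 2.23 ± 0.20 and Gimap3 above Gimap1 by 1.09 ± 0.14 on this scale (SD, n = 3). Gimap9 exceeded Gimap4 by 0.78 ± 0.09, Gimap4 exceeded Gimap8 by 0.45 ± 0.15, and Gimap8 exceeded Gimap5 by 0.45 ± 0.34. On that length the differences among Gimap1, Gimap6 and Gimap9 were small: Gimap1 over Gimap6 by 0.18 ± 0.11, and Gimap6 over Gimap9 by 0.14 ± 0.07. The TPM ranges of Gimap6 and Gimap9 overlapped, whereas those of the other 6 pairs did not. Each of the 7 pairs had the same sign in 3 of 3 libraries, and the exact two-sided sign-flip permutation test gave p = 0.25 for each (0.25 after Benjamini-Hochberg adjustment over the 7 pairs), the smallest that 3 libraries allow. The pairs and their direction were taken from the order in these same libraries. The shared sign is therefore no separate support for that order.

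The place of Gimap5 in this order, and the level of Gimap1, depended on which bases count as the gene's length. The deposited length merges all annotated exons of a gene, and for Gimap5 it was 4149 bases, against 1953 bases for its longest protein-coding transcript. For Gimap1 the 2 lengths were 3073 and 1493 bases, and for Gimap7 2325 and 1269 bases, whereas for Gimap4 they were 1837 and 1804. With the coding-transcript lengths, Gimap5 stood at 25.8 ± 3.43 TPM, above Gimap4 at 23.8 ± 2.95 and Gimap8 at 19.8 ± 2.33 TPM (SD, n = 3). Gimap1 stayed second at 104 ± 5.48 TPM, with Gimap3 at 131 ± 5.79. The step from Gimap3 to Gimap1 fell to 0.32 ± 0.14 on the log2 scale. That from Gimap1 to Gimap6 rose to 1.07 ± 0.11, so the sizes of these steps depended on the length too. Gimap6 and Gimap9 were then level to within their spread, at a log2 difference of 0.03 ± 0.07 that did not keep 1 sign over the libraries. Gimap3 remained highest and Gimap7 lowest, at 3.69 ± 0.414 TPM, and the ratio of highest to lowest was 35.5 in place of 54.1. Which isoforms the fragments came from cannot be read from counts per gene.

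**Figure D2:**
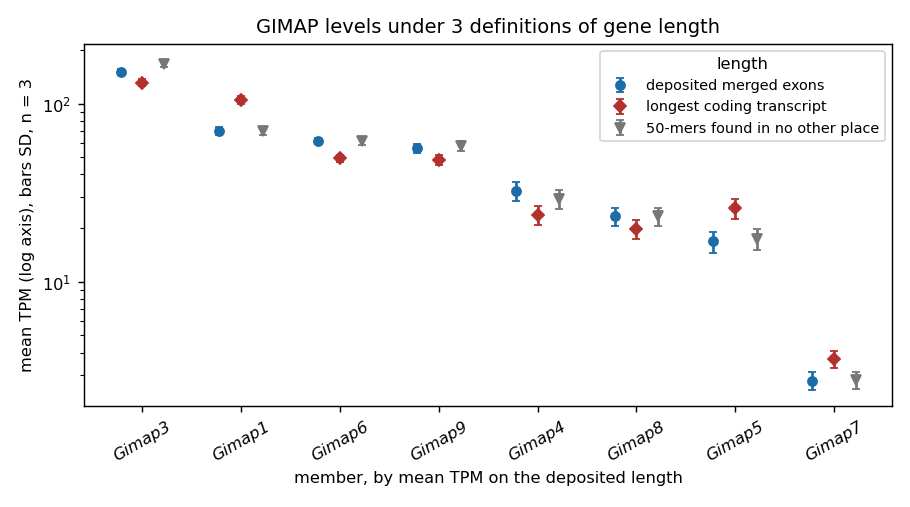
Mean TPM (log axis, bars SD, n = 3) of each GIMAP gene under 3 definitions of gene length: the deposited merged exons, the longest protein-coding transcript, and the number of 50-base stretches found in no other place. The last was put in for the GIMAP genes only, while other genes kept the deposited length. Gimap5 lies at 16.8 TPM on the deposited length and at 25.8 TPM on the coding-transcript length, while Gimap3 is highest and Gimap7 lowest under all 3.

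Between the 3 libraries the members differed by ratios of 1.05 to 1.33. A gene was called different at a chi-square adjusted p under 0.05 and a ratio of 2 or more between the highest and lowest CPM. CPM is fragments scaled for library size only. Of the members 0 of 8 were called, against 11.0% of the 13688 genes tested and 764 of the 11461 protein-coding genes tested. For 8 genes a count of 0 is near that background. By the adjusted p alone, 7 of 8 members passed, as did 70.5% of all genes tested, and the same 7 of 8 had an unadjusted p under 0.05; at these depths small differences exceed counting error. Gimap5 had the largest ratio, 1.33, with replicate 3 highest and replicate 2 lowest (chi-square test, adjusted p = 7.45e-10). Gimap4 followed at 1.25, with replicate 2 highest (chi-square test, adjusted p = 4.02e-06). Gimap7 at 1.23 was the 1 member that did not pass (chi-square test, adjusted p = 0.196), from 348 fragments in all. Gimap8 had a ratio of 1.22 and Gimap1 of 1.15, and Gimap9, Gimap6 and Gimap3 had ratios of 1.10, 1.09 and 1.05. The median ratio of 8169 genes at 10 TPM or more was 1.13, and 5 of the 8 members lay above it. These include Gimap7, which at 2.79 TPM is itself outside that set.

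The library with the highest level differed between members. By TPM, replicate 2 was highest for 6 members (by CPM for 4, with replicate 3 highest for Gimap6 and Gimap7 too), whereas replicate 3 was highest for Gimap1 and Gimap5, in which replicate 2 was lowest. Replicate 3 was lowest for Gimap3 and Gimap8, and replicate 4 for Gimap6, Gimap9, Gimap4 and Gimap7. In relative spread, 4 of 8 members had a CV above 6.18%, the median of the 7743 protein-coding genes that average at least 10 TPM. They include Gimap7, which at 2.79 TPM is outside that set and has the fewest fragments. Gimap4 and Gimap5 lay above the 90th percentile of that set, 12.2%.

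**Figure D3:**
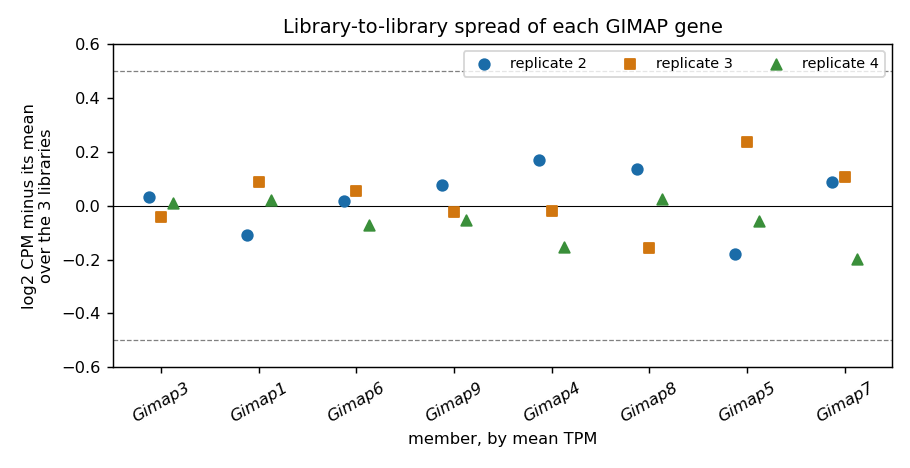
Log2 CPM of each GIMAP gene in replicates 2, 3 and 4 minus its mean over the 3 libraries. The widest deviation is that of Gimap5 in replicate 3, at 0.23, and the dashed lines mark deviations of 0.5 on either side.

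The cluster held 5 other genes among the 8 members, all at low levels. Gm28053, a gene model on the plus strand that spans Gimap7, Gimap1 and Gimap5, was at 2.06 ± 0.367 TPM from 30, 26 and 54 fragments. It shares exon bases on the same strand with these 3 members: 81 bases of Gimap7 (3.48%), 198 of Gimap1 (6.44%) and 153 of Gimap5 (3.69%). Fragments there fit more than 1 gene and are left out by the counting program's defaults. The same bases belong to the 989-base length of Gm28053, a larger part of it than of the members, so its own TPM is understated. Gimap1os is annotated antisense to Gimap1 over 1107 exon bases of Gimap1 (36.02%). Gimap1 was at 65.9, 73.2 and 71.3 TPM in replicates 2, 3 and 4, and Gimap1os at 3.20, 1.58 and 2.01 TPM. Gimap1os was highest in replicate 2, in which Gimap1 was lowest. The counting used strand, which separates the pair only as far as the libraries kept strand, and that was not tested. Gimap1os had 121, 70 and 182 fragments in replicates 2, 3 and 4, beside 2471, 3226 and 6407 for Gimap1. The non-coding gene 4833403J16Rik, between Gimap5 and Gimap3, was at 4.61, 7.24 and 3.82 TPM in replicates 2, 3 and 4, and was highest in replicate 3, as Gimap5 was. Gm44226 had 4 fragments in all and Gm44262 none.

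Levels were low outside the cluster. To the left, Zfp775 was at 6.12 ± 1.23 TPM and AI854703 at 5.17 ± 0.61 TPM (SD, n = 3), while Gm38804 had 2 fragments and Gm45021 and Gm44965 none. To the right, Tmem176b and Tmem176a had 26 and 19 fragments in all, and Gm30781, Gm17834 and Gm44764 none. Thus 7 of the 8 members exceeded every one of the 10 flanking genes, and Gimap7, at 2.79 TPM, lay below Zfp775 and AI854703. Within the cluster, neighbouring members differed in level: Gimap7, at 2.79 TPM, is followed by Gimap1 at 70.2 TPM, and Gimap5, at 16.8 TPM, by Gimap3 at 151 TPM.

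**Figure D4:**
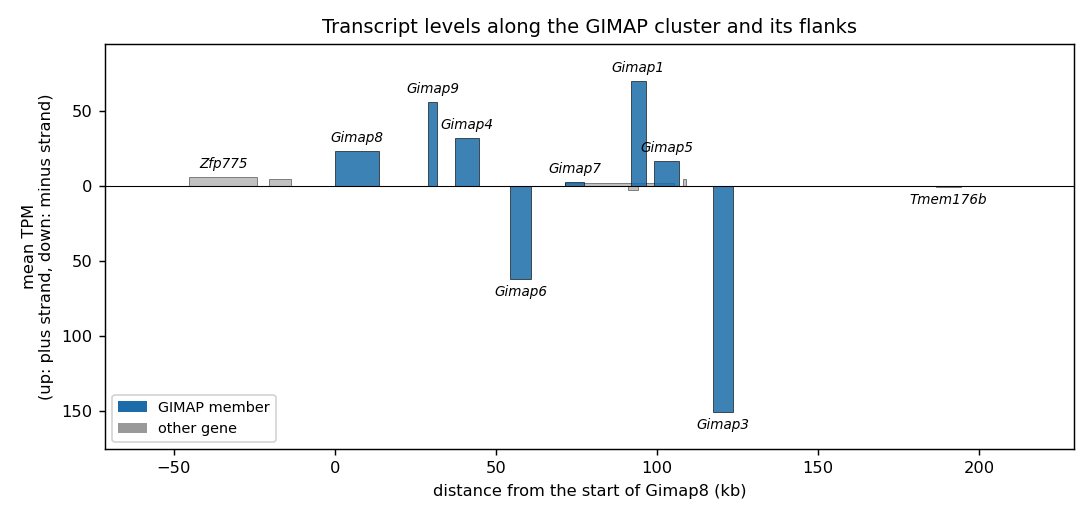
Mean TPM of the GIMAP genes (blue) and of the other genes in and beside the cluster (grey), drawn from each gene's start to its end in kb from the start of Gimap8. Bars point up for the plus strand and down for the minus strand; Gimap3, at 151 TPM, is the tallest, and Zfp775 at 6.12 TPM is the highest of the flanking genes.

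Genes of the BCL2 and ATG8 families, some of whose proteins have been reported to bind GIMAP members, were transcribed as well. All 7 BCL2 family genes on the list were above 10 TPM throughout, and their median was 82.6 TPM. They ran from 13.7 ± 0.696 TPM for Bcl2l11, which encodes the death-promoting protein BIM, to 367 ± 15.9 TPM for Bcl2l1, which encodes the survival protein BCL-XL (SD, n = 3). The survival gene Bcl2 itself was at 24.2, 22.6 and 23.2 TPM in replicates 2, 3 and 4, and the pore-forming Bax at 316, 376 and 375 TPM. Bcl2 was thus near Gimap8 in level, and Bax was above every GIMAP gene in every library. Of the ATG8 family genes, which encode the membrane tags of autophagy, 5 of 5 reached 1 TPM in every library, from Map1lc3a at 7.24 ± 2.23 TPM to Gabarap at 122 ± 4.51 TPM. Gimap6 was at 59.0 to 63.5 TPM, above its partner Gabarapl2, which was at 31.4, 35.6 and 33.1 TPM. None of the genes on these lists was called between libraries, against 11.0% of all genes tested and 764 of 11461 protein-coding genes tested.

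The interferon-inducible IRG and GBP families, which are GTPases of immune cells too, were mostly scarce. Whereas 8 of 8 GIMAP genes reached 1 TPM throughout with a median of 44.3 TPM, 6 of 15 IRG and GBP genes did, and their median was 0.803 TPM. Some of these IRG and GBP genes overlap in their spans on the same strand. Fragments that fit several genes are left out by default, and how many were lost for this list was not tested. Ifi47 was highest at 316 ± 21.8 TPM, above Gimap3, and Iigp1 lowest with 2 fragments in all. Igtp, named after its values had been seen, was the other of the 2 that were above 10 TPM throughout, at 50.9 ± 11.9 TPM. Between libraries 2 of the 13 tested were called, Gbp3 and Tgtp1, both with a ratio of 3.42 and highest in replicate 2. Beside this, 11.0% of all genes tested and 764 of 11461 protein-coding genes tested were called. Gbp3 and Tgtp1 were named after their values had been seen.

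The GIMAP median of 44.3 TPM lay below those of genes of activated and of resting T cells, which were both abundant in these libraries. All 12 activation genes reached 10 TPM, with a median of 350 TPM, from the proliferation marker Mki67 at 13.3 ± 0.881 TPM to the transcription factor Irf4 at 1572 ± 15.7 TPM (SD, n = 3). All 15 genes of quiescent and naive T cells reached 1 TPM, with a median of 71.5 TPM, from the interleukin-7 receptor gene Il7r at 5.25 ± 1.07 TPM to the homing receptor gene Ccr7 at 1263 ± 45.1 TPM. None of the genes on either list was called between libraries, against 11.0% of all genes tested and 764 of 11461 protein-coding genes tested. Il2ra and Ctla4 are on the activation list and among the T cell markers. There was no unstimulated sample among these 3, so a change of GIMAP genes with activation cannot be measured here.

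GIMAP genes are also expressed by B, natural killer and endothelial cells, and markers of such cells were low beside the GIMAP sum of 408 to 426 TPM. B cell markers summed to 3.13, 3.19 and 3.29 TPM in replicates 2, 3 and 4, with 0 of 6 at 1 TPM in every library and Cd79a highest at 1.12 TPM. Endothelial markers summed to 13.2 to 14.4 TPM, from Egfl7 at 9.51 and Pecam1 at 4.20 TPM, while Kdr, Tie1, Tek and Emcn had no fragment and Cdh5 had 1. Myeloid markers summed to 0.0595 to 0.254 TPM, with Lyz2, Csf1r, Fcgr1 and C1qa at 0 fragments and Cd14 highest. Natural killer and CD8 markers summed to 24.9 to 29.4 TPM, nearly all of it Cd8b1 at 26.9 TPM, whereas Cd8a was at 0.416 TPM and Klrk1 had no fragment. The part of such cells in the GIMAP levels was not tested beyond these values. In bulk RNA, fewer cells that express a gene and less RNA per cell cannot be told apart.

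**Figure D5:**
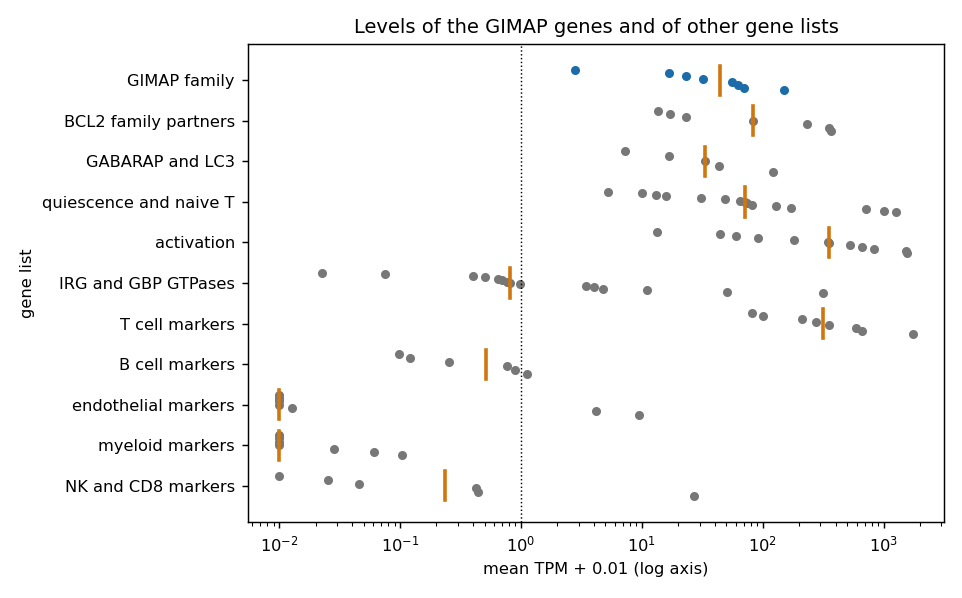
Mean TPM + 0.01 (log axis) of each gene on 11 lists, GIMAP genes in blue at the top, with the list median as an orange bar and 1 TPM as a dotted line. All 8 GIMAP genes lie right of the dotted line, whereas markers of B, endothelial, myeloid, natural killer and CD8 cells lie mostly left of it.

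The genes closest to Gimap3 in level over the 3 libraries, by Euclidean distance of log2(TPM + 1) among protein-coding genes, were Xrcc5 (0.0350), Dis3 (0.0370) and Anxa6 (0.0432). Xrcc5, which encodes a subunit of the DNA repair protein Ku, was at 157, 143 and 149 TPM in replicates 2, 3 and 4. Dis3, a catalytic subunit of the RNA exosome, was at 156, 146 and 149 TPM, and the annexin gene Anxa6 was at 153, 147 and 152 TPM. All 3, like Gimap3, were highest in replicate 2 and lowest in replicate 3. With 1 cell type and 3 libraries this likeness is one of level, and says nothing of shared regulation.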

How the data were processed

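Total RNA of Treg cells was sequenced in 3 libraries; polyadenylated RNA is named in the title of the library protocol, and CD4 T cells in that of the differentiation protocol. The deposited tables hold the authors' raw counts of fragments for each gene, its merged exon length and its coordinates. Per the file headers, featureCounts 1.4.6-p4 counted read pairs on the reverse strand (strand option 2) in GENCODE mouse M13 exons; the build is mm10 per the labels, and STAR appears in alignment file names. The headers show no option for fragments that fit several places or genes, which the program leaves out by default.

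From these counts TPM was computed as count over deposited length, scaled to the same total in each library. Symbols came from GENCODE M21 by unversioned identifier (50376 of 50600 matched). The authors' length column is in bases. The smallest countable level, 3 fragments, was 0.0728, 0.0629 and 0.0303 CPM in replicates 2, 3 and 4; it covers counting error only, since no molecular identifiers were used.

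With 1 group, each gene's rates in the libraries were tested for equality by chi-square (2 degrees of freedom, at least 30 fragments in sum, TMM library sizes from edgeR 4.0.16 in R 4.3.3), adjusted over all genes by Benjamini-Hochberg. The test treats each fragment as independent and speaks of these libraries, not of conditions. Alternatives were DESeq2 1.42.0 size factors, library totals, other filters, ratios and lengths, and leaving out each library. Of the steps, only the chi-square call was tested on simulated data. Apart from planted changes, the simulated counts varied by counting error alone, unlike the real libraries. G1 boxes were searched in frame, as a pattern of codons, in the untranslated bases of the coding sequences. Identity was taken from local alignments (biopython 1.88). Scripts ran in Python 3.11.15 with scipy 1.17.1, pandas 2.3.3, matplotlib 3.10.9 and numpy 2.4.6.

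The rule for members goes by gene name alone, but the family and the gene lists were chosen with earlier results of these data known. Genes named were the members, genes of the cluster and its flanks by position, and the highest and lowest of each list. List members reported to bind GIMAP proteins and the 3 genes nearest Gimap3 in level were named too. Markers with no fragment and genes called among 5 or fewer were added.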

Additional observations from a re-analysis of the deposited data

How the results depend on the processing

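The order of the 8 GIMAP genes by mean TPM was the same in 7 of 8 alternatives, though some of these could hardly change it. In the eighth, the longest protein-coding transcript as gene length (chosen after seeing the data, as were exon bases that no other gene of the strand covers), Gimap8 over Gimap5 turned to -0.37 ± 0.34 on the log2 scale, and Gimap6 over Gimap9 became 0.03 ± 0.07 (exact sign-flip permutation p = 0.75), so that 5 of 7 neighbouring pairs kept their sign in 3 of 3 libraries. Gimap3 over Gimap1 narrowed from 1.09 to 0.32 ± 0.14 there, and Gimap1 over Gimap6 widened from 0.18 to 1.07 ± 0.11. By construction this setting shortens Gimap5 most. The scalings to protein-coding genes and to TMM sizes multiply all genes of a library alike and cannot change the order within it. Leaving out 1 library reuses the remaining ones. Only the length settings alter the members relative to each other within a library. The summed level of 414 TPM became 441 TPM when scaled to protein-coding genes outside the mitochondrial genome. With 50-base stretches found in no other place as length it became 430 TPM. That length was put in for the 8 members only, so this sum is not on the same scale as the others. It counts distinct stretches over all transcripts of a gene, 2027 for Gimap4 beside 1837 exon bases. Without 1 library each the sum ran from 408 to 417 TPM. Genes called between libraries numbered 1505; they were 2384 of 20470 with no filter on low counts and 523 to 777 without 1 library each, where 2 libraries are compared in place of 3. Without replicate 3 there were 523, without replicate 4 528 and without replicate 2 777. DESeq2 size factors gave 1499, library totals 1500 and a ratio of 1.5 gave 2205. No GIMAP gene was called under any of these settings; by the adjusted p alone 3 to 7 of 8 passed. No paired analysis was possible because the libraries form 1 group. Depth limits mainly Gimap7 and the scarce genes of the cluster.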
